A study of Mus musculus with 240 samples.

Results

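The genes described here are the platelet-derived growth factor (PDGF) receptor alpha gene, Pdgfra, and the 4 PDGF ligand genes Pdgfa, Pdgfb, Pdgfc and Pdgfd. They were chosen by symbol, as 5 of the 34623 genes in the table of expression values, and all 5 passed the filter on low counts in the bulk samples. The study followed oligodendrocyte precursor cells (OPCs) of the mouse brain from before a tumour to a tumour. Cells positive for the red fluorescent protein tdTomato were cut out of frozen brain sections with a laser, and their RNA was amplified and sequenced. One genotype was wild type (WT), and the other was Trp53-/- Nf1-/-, called CKO in the labels, in which the tumour suppressor genes Trp53 and Nf1 were deleted. Times are days after the start of tamoxifen treatment (dpi), a label that wild-type animals carry too. In bulk there were 5 WT animals at 12 dpi, 5 at 90 dpi and 6 at 150 dpi, and 7 CKO animals at each of 12 and 90 dpi. At 150 dpi the 7 CKO samples were tumour cells, so time and tumour state cannot be told apart in that genotype. A second part of the study measured CKO cells only, at 12 and 90 dpi, as 56 libraries of 10 cells each and 40 pool-and-split controls at each time, in which material from many cells was pooled and then divided into portions. The driver of the recombination and the ages of the mice are not given in the sources used here.

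PDGF ligands are secreted dimers that bind receptor tyrosine kinases, and binding starts signalling through Ras and MAP kinase, PI3 kinase and phospholipase C gamma. The alpha receptor is a classical marker of OPCs, which divide in response to the A ligand made by neurons and astrocytes around them. The A and B chains are cut by proprotein convertases inside the cell, whereas the C and D chains carry a CUB domain that must be removed outside the cell, for example by the plasminogen activators. The A and C ligands act mainly through the alpha receptor, the D ligand mainly through the beta receptor, and the B ligand through both. Forced PDGF signalling in glial precursors has long been used to model glioma in mice.

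Values below are expected counts from the authors, summed over the libraries of an animal and given as CPM (counts scaled to 1000000 per library), adjusted by the trimmed mean of M values (TMM). Each change is a log2 ratio from 1 fit of edgeR's quasi-likelihood F test to all 37 animals with sex as a covariate, and p-values were adjusted by the Benjamini-Hochberg method over all 16349 genes tested. A change was called at an adjusted p under 0.05. The 48 bulk libraries held 93700 to 23200000 counts, with a median of 10000000. The shallowest belonged to WT_21167, a wild type at 90 dpi with 93700 counts, and the main values that rest on it are also given without it. OPC markers were present in every group: median Cspg4 was 80.1 CPM in WT at 150 dpi and 229 CPM in tumours, and median Sox10 was 31.3 and 168 CPM, all before TMM scaling. Nf1 ranged from 260.6 to 357.4 CPM in WT and from 176.2 to 215.8 CPM in CKO animals at 12 dpi, which did not overlap, whereas Trp53 overlapped (23.1 to 44.2 and 26.3 to 36.9 CPM). Groups that do not overlap with CKO lower were found for 0.606% of all genes at 12 dpi. Nf1 did overlap at 90 dpi (274.3 to 343.0 CPM in WT, 149.5 to 301.6 in CKO) and at 150 dpi (252.1 to 354.6 in WT, 149.5 to 273.4 in tumours). Which exons were deleted is not given, so a count over the whole gene is only a partial check. Between the 2 libraries of 1 animal, in 11 animals, the median absolute log2 ratio was 0.07 for Pdgfra, 0.37 for Pdgfa, 0.43 for Pdgfc, 1.04 for Pdgfb and 1.07 for Pdgfd, so single values of Pdgfb and Pdgfd are uncertain. Those 11 animals were all the tumours and some CKO animals. Every WT animal had 1 library, so these ratios do not cover WT, and each tumour value sums 2 libraries against 1 in WT. The captured non-tumour material also held much neuronal RNA, with a median of 9557 to 10030 CPM summed over 12 neuronal markers in CKO at 90 dpi and WT at 150 dpi, against 563.5 CPM in tumours.

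Pdgfra lies on mouse chromosome 5 of build GRCm38 at chr5:75152292-75198215 on the plus strand, with 10.024 kb of exon sequence in GENCODE. The antisense gene Gm42802, Gm42803 and the microRNA gene Mir7025 overlap it. Pdgfa lies at chr5:138976014-138997370 on the minus strand (3.119 kb of exon), overlapped by the antisense gene 6330403L08Rik. Pdgfb lies at chr15:79995900-80014808 on the minus strand (4.161 kb of exon), Pdgfc at chr3:81036416-81214040 on the plus strand (5.089 kb) and Pdgfd at chr9:6168584-6378850 on the plus strand (3.154 kb). Pdgfb overlaps Mir7213 and the antisense gene Gm41361, Pdgfc overlaps the antisense gene Gm16000, and Pdgfd overlaps the protein-coding gene Ddi1 on the opposite strand. Whether counting used the strand is not given in the sources used here, so reads from a gene and its antisense partner cannot be told apart.

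Promoter windows of 300 bases, 250 before and 50 after the transcript start, were taken from RefSeq for build GRCm38.p6 and matched 4 of the 5 genes, all but Pdgfb. Those of Pdgfra, Pdgfc and Pdgfd are shown, because these genes were called higher in tumours in at least 1 comparison. They are written 5′ to 3′ on the gene's strand, and capitals mark matches to the motifs named below, found on either strand. Pdgfra covers chr5:75152001-75152300, Pdgfc covers chr3:81036166-81036465 and Pdgfd covers chr9:6168236-6168535, all on the plus strand.
Pdgfra: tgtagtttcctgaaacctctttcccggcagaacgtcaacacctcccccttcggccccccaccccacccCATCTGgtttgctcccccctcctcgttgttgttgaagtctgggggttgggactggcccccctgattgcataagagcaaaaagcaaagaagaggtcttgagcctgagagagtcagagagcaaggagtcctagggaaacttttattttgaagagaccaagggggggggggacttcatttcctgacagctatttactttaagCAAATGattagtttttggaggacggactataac
Pdgfc: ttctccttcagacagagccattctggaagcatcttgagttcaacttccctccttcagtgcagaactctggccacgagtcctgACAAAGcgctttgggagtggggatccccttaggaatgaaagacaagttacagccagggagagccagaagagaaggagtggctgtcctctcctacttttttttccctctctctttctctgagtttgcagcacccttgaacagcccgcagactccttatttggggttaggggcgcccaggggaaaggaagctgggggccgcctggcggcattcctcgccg
Pdgfd: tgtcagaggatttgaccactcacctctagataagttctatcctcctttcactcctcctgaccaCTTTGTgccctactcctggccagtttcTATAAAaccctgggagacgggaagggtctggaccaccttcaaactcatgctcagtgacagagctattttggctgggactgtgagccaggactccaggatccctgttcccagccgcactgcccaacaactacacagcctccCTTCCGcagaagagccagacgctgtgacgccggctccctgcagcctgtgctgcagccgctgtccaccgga

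The 3 windows differ in their letters. Offsets count from the RefSeq transcript start of each window, which for Pdgfra and Pdgfd lies before the gene start given above. The Pdgfra window holds 2 E-boxes (CANNTG, the letters that basic helix-loop-helix factors such as Olig2 read), CATCTG at -182 and CAAATG at +17 from the start, and its GC content is 51.0%. An E-box stands in 72.3% of the 32851 promoter windows of the table. The Pdgfc window holds ACAAAG, 1 of 2 SOX core motifs searched, at -168, and its GC content is 55.0%; that motif stands in 18.7% of all windows. The Pdgfd window, with 56.7% GC, holds the same motif on the minus strand at -187 (printed as CTTTGT). It also holds TATAAA, the sequence of a TATA box, at -160, and CGGAAG, an ETS motif printed as CTTCCG, at -20. TATAAA stands in 13.6% of all windows and CGGAAG in 16.9%. The 2 Pdgfa windows, not printed, had GC contents of 67.0% and 73.3% and held GC boxes (GGGCGG), which the other 3 windows lacked and which stand in 35.7% of all windows. The other motifs searched were CCAAT (37.4% of windows), ACAATG (12.6%) and TGANTCA (7.81%), all on both strands, and no printed match overlaps another. These matches describe letters only.

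Pdgfra, the receptor, was the most abundant of the 5 genes and was higher in tumours than in every other group it was tested against. In the 7 tumours it stood at 555.8, 664.3, 1069, 1074, 1108, 1389 and 2630 CPM, with a mean of 1213 ± 686 (SD, n = 7). WT animals at 150 dpi ranged from 245.6 to 711.8 CPM with a median of 391.2 (mean 421 ± 162, n = 6), and CKO animals at 90 dpi from 314.1 to 589.9 with a median of 476.8 (mean 453 ± 91.7, n = 7). Of the 7 tumours, 5 lay above all WT animals of that time and 6 above all CKO animals at 90 dpi. The lowest tumour, Tumor_21354 at 555.8 CPM, lay inside both ranges.

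The Pdgfra change between tumours and WT at 150 dpi was 1.54 (SE 0.25, adjusted p = 3.23e-06, edgeR), and between tumours and CKO at 90 dpi it was 1.38 (SE 0.24, adjusted p = 8.2e-06, edgeR). The genotype effect itself grew from 90 to 150 dpi by 1.04 (SE 0.35, adjusted p = 0.0209, edgeR). The highest tumour, Tumor_21256, carried part of the size: without it the 3 values were 1.24, 1.10 and 0.76, each still called. Its 2 libraries gave 2491 and 2494 CPM before TMM scaling, so both carried its level. In each comparison a large share of all genes was called, 46.2% against WT, 49.1% against CKO at 90 dpi and 30.0% for the growth of the genotype effect. Of the calls against WT and against CKO at 90 dpi, 52.6% and 53.8% were higher, and with DESeq2's scaling 62.5% and 64.3% were. Of the 5 PDGF genes, 3 of 5, 3 of 5 and 1 of 5 were called in these comparisons.

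The cell content of the samples also differed in both tumour comparisons. Summed over 16 OPC markers, which do not include Pdgfra, the median was 4281 CPM in WT at 150 dpi, 4529 CPM in CKO at 90 dpi and 9525 CPM in tumours (5701 to 13970), and 13 of the 16 were called higher in tumours in both comparisons. All 12 neuronal markers were lower in tumours than in CKO at 90 dpi, and 11 of 12 were lower than in WT. Tumor_21256, highest for Pdgfra, was also highest for the OPC markers (13970 CPM), and Tumor_21349, second lowest for Pdgfra, was lowest for them (5701 CPM). Tumor_21256 was highest for the astrocyte (3840 CPM), neuronal (1670 CPM) and endothelial (437.0 CPM) sums as well. Other tumours did not keep the order of Pdgfra. Tumor_16713 had 13220 CPM of OPC markers with Pdgfra at 1069 CPM, and Tumor_21354, lowest for Pdgfra, had 8432 CPM of OPC markers. Of 12 markers of perivascular fibroblasts, cells that also carry the alpha receptor, 8 were higher against WT and 7 against CKO at 90 dpi, with none lower. Over all genes, 24.3% and 26.4% were called higher. They summed to a median of 160.1 CPM in WT at 150 dpi, 145.0 CPM in CKO at 90 dpi and 281.5 CPM in tumours (57.99 to 2762). Tumor_16713 had 2762 CPM, Tumor_21354 813.4, Tumor_16844 440.9 and Tumor_16840 281.5, above all WT animals at 150 dpi (107.9 to 213.7 CPM). The other tumours, at 150.0, 143.2 and 57.99 CPM, did not lie above them. Median Fmod was 1.22 CPM in WT at 150 dpi and 22.9 CPM in tumours, but median Col1a1 was 3.04 and 3.64 CPM, all before TMM scaling. All 16 proliferation genes were called higher in tumours in both comparisons, yet Tumor_21256 was the lowest tumour for them (633.2 CPM) and Tumor_21349 the highest (3018 CPM). The part of cell content in the Pdgfra change was not tested. In bulk samples, fewer cells of a type and less RNA per cell cannot be told apart.

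**Figure D1:**
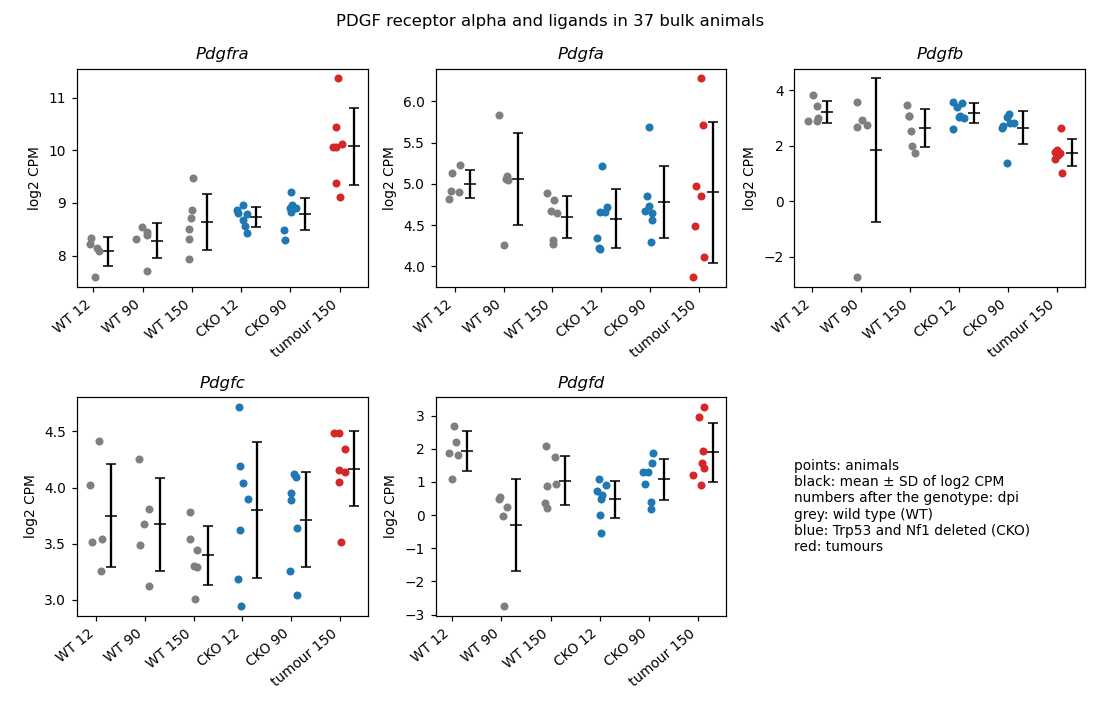
Log2 CPM of each gene in the 37 bulk animals, 1 panel per gene, with groups on the x axis (genotype and dpi) and the mean ± SD of each group in black. The 7 tumours reach 2630 CPM for Pdgfra, and for Pdgfb their highest value is 6.07 CPM.

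Before tumours, Pdgfra was higher in every CKO animal than in every WT animal at 12 dpi, but the change did not pass the test. The WT animals stood at 193.8, 273.1, 284.1, 296.7 and 322.9 CPM, and the CKO animals ranged from 343.9 to 498.5 with a median of 442.8, so the groups did not overlap. Groups that do not overlap with CKO higher were found for 0.722% of all genes tested. The change was 0.66 (SE 0.26, adjusted p = 0.997, unadjusted p = 0.0142, edgeR), in a comparison in which 0.0183% of all genes were called. In a fit of only those 12 animals it was 0.58 and was called (adjusted p = 0.0335, edgeR). The sum of the OPC markers did not rise with it, at a median of 3729 CPM in WT and 3513 CPM in CKO. Single OPC markers went both ways, with log2 changes from -0.82 to 0.41 and none of the 16 called (edgeR). Median Cacng4 was 153 CPM in WT and 180 CPM in CKO, and median Gpr17 was 355 and 203 CPM, all before TMM scaling. The summed proliferation genes ranged from 46.4 to 97.9 CPM in WT and from 89.1 to 174 CPM in CKO with none of the 16 called. Their part in the Pdgfra difference was not tested.

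At 90 dpi the difference was smaller against its error. WT animals stood at 208.5, 320.3, 334.8, 348.2 and 371.3 CPM, the lowest being the shallow WT_21167, and 5 of the 7 CKO animals lay above all of them. The change was 0.50 (SE 0.26, adjusted p = 0.964, edgeR), and 0.0489% of all genes were called. Without WT_21167 the WT mean was 344 ± 21.7 CPM (n = 4) and the change 0.41. From 12 to 90 dpi Pdgfra changed by 0.08 in CKO animals (SE 0.23, adjusted p = 1, edgeR), a comparison in which edgeR called 0.0% of genes, with 696 genes at an unadjusted p under 0.05 and 4 called by DESeq2. In order of their means the groups ran WT 12, WT 90, WT 150, CKO 12, CKO 90 and tumours, and each neighbouring pair in that order overlapped.

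In each of the comparisons before tumours, and in the test of whether CKO and WT differed by another amount at 90 than at 12 dpi, edgeR and DESeq2 called 0 of the 5 PDGF genes. At an unadjusted p under 0.05 stood 2 of 5 in CKO against WT at 12 dpi (Pdgfra and Pdgfd), and Pdgfd alone in CKO against WT at 90 dpi, WT 90 against 12 dpi, WT animals at 150 against 90 dpi, and that last test. Over all 16349 genes, 793, 850, 795 and 1350 stood under that value in the first 4 of these comparisons. The test of differing effects had 0.0% of genes called by edgeR, with 589 at an unadjusted p under 0.05 and 9 called by DESeq2.

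**Figure D2:**
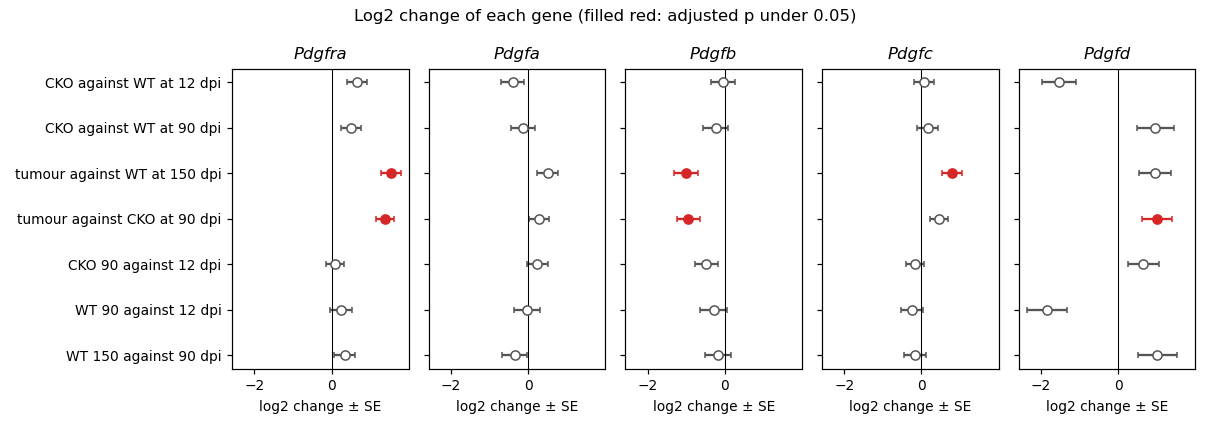
Log2 change ± SE of each gene (1 panel per gene, x axis) in 7 bulk comparisons (y axis), with red filled points where the adjusted p was under 0.05. Filled points stand only at the 2 tumour comparisons among the 7 shown, and Pdgfb is the gene whose filled points lie below 0.

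Pdgfa, the A ligand and the main mitogen of OPCs, was not called by edgeR in any comparison, whereas DESeq2 called it higher in tumours than in WT (0.68, adjusted p = 0.0479). Tumours stood at 14.5, 17.1, 22.3, 28.8, 31.2, 52.3 and 77.4 CPM and so spread more widely than WT animals at 150 dpi, which ranged from 19.2 to 29.6 with a median of 25.2. Of the 7 tumours, 3 lay above all WT animals and 2 below all of them. The change was 0.50 (SE 0.28, adjusted p = 0.147, edgeR) against WT and 0.28 (SE 0.27, adjusted p = 0.393, edgeR) against CKO at 90 dpi. Tumor_16713, with the highest Pdgfa at 77.4 CPM, also had the highest sum of 12 perivascular fibroblast markers (2762 CPM, against 57.99 to 813.4 CPM in the other tumours). Its pericyte (320.6 CPM) and oligodendrocyte (1812 CPM) sums were the highest of the tumours too. Tumor_21354, next for the fibroblast markers at 813.4 CPM, had 28.8 CPM of Pdgfa. The part of any of these cells was not tested. Without Tumor_16713 the change against CKO at 90 dpi was -0.07. Across the other groups, mean Pdgfa lay between 24.4 and 35.2 CPM. The highest of these means, in WT at 90 dpi, was 29.8 CPM without WT_21167, in which Pdgfa rested on 6 counts.

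Pdgfb, the ligand that also recruits pericytes through the beta receptor, was lower in tumours. The tumours stood at 1.89, 2.75, 3.01, 3.22, 3.29, 3.45 and 6.07 CPM, with a mean of 3.38 ± 1.29 (SD, n = 7). WT animals at 150 dpi ranged from 3.19 to 11.1 CPM with a median of 6.99 (mean 6.73 ± 3.03, n = 6), and CKO animals at 90 dpi from 2.46 to 8.75 with a median of 6.85 (mean 6.52 ± 2.02, n = 7). Against WT, 3 of 7 tumours lay below the whole range, and against CKO at 90 dpi 1 of 7 did, so the ranges overlapped in both. Pdgfb fell by 1.00 (SE 0.30, adjusted p = 0.00704, edgeR) against WT and by 0.94 (SE 0.29, adjusted p = 0.00699, edgeR) against CKO at 90 dpi, 2 comparisons in which 21.9% and 22.6% of all genes were called lower. The call against WT was lost without WT_21593, the WT animal with the most Pdgfb, when the change was -0.74 (adjusted p = 0.0591, edgeR), and in a fit of the 2 groups alone (adjusted p = 0.0696).

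Summed markers of endothelial cells, pericytes and neurons had lower medians in tumours too. The 12 endothelial markers summed to a median of 432.6 CPM in WT at 150 dpi, 310.6 in CKO at 90 dpi and 282.7 in tumours, with 3 of 12 called lower against WT and none called against CKO at 90 dpi (edgeR). Pericyte markers summed to 570.7, 276.0 and 194.4 CPM, with 7 of 10 lower against WT but 2 higher and 2 lower against CKO at 90 dpi. Neuronal markers fell in both comparisons, as given above. The part of these cells in the Pdgfb difference was not tested.

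Pdgfc, a ligand of the alpha receptor that is secreted in latent form, was higher in tumours than in WT. The tumours stood at 11.3, 16.4, 17.4, 17.6, 20.1, 22.2 and 22.3 CPM (mean 18.2 ± 3.83, SD, n = 7). WT animals at 150 dpi ranged from 7.90 to 13.6 CPM with a median of 10.2 (mean 10.5 ± 1.94, n = 6), and 6 of the 7 tumours lay above all of them. The change was 0.80 (SE 0.25, adjusted p = 0.00835, edgeR), in a comparison in which 24.3% of all genes were called higher. CKO animals at 90 dpi lay between, from 8.07 to 17.2 CPM with a median of 14.7, and the change from them to tumours was 0.47 (SE 0.23, adjusted p = 0.0945, edgeR). That change was called with DESeq2 (0.64) and with RLE size factors (0.64), a scaling that moved the median change of all genes from 0.12 to 0.29.

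Pdgfd, a ligand that binds the beta receptor, was called higher in tumours than in CKO at 90 dpi. The tumours stood at 1.73, 2.16, 2.55, 2.85, 3.66, 7.69 and 9.37 CPM, and the high pair, Tumor_16713 and Tumor_16844, lay apart from the other 5. Their own libraries differed, at 5.89 and 12.95 CPM in Tumor_16713 and 4.86 and 18.7 CPM in Tumor_16844 before TMM scaling. CKO animals at 90 dpi ranged from 0.983 to 3.50 CPM with a median of 2.29, and 3 of 7 tumours lay above them. The change was 1.01 (SE 0.40, adjusted p = 0.0339, edgeR), in a comparison in which 26.4% of all genes were called higher. It was no longer called without Tumor_16713, without Tumor_16844, or without any of 3 of the CKO animals (CKO_20647, CKO_22149 and CKO_22154), with values of 0.70 to 1.20 over all single animals left out. Against WT at 150 dpi (1.00 to 4.09 CPM, median 1.74) the change was 0.96 (SE 0.43, adjusted p = 0.0633, edgeR), and it was called with DESeq2 (1.12, adjusted p = 0.0319) and with RLE size factors (1.14, adjusted p = 0.0286, edgeR). The call against CKO at 90 dpi was lost in a fit of the 2 groups alone (adjusted p = 0.0929, edgeR) and when genes of any count were tested (adjusted p = 0.0781, edgeR).

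Pdgfd also moved within wild-type animals, without passing the adjusted test. WT animals at 12 dpi stood at 1.99, 3.35, 3.48, 4.48 and 6.36 CPM, and those at 90 dpi at 0, 0.829, 1.03, 1.25 and 1.31 CPM, so every animal at 90 dpi lay below every animal at 12 dpi. The 0 belongs to WT_21167, whose depth gives few counts for a gene of this level, and without it the mean was 1.10 ± 0.219 CPM (n = 4). Groups that do not overlap in that direction were found for 1.74% of all genes. The change was -1.84 (SE 0.52, adjusted p = 0.947, unadjusted p = 0.00115, edgeR), where 0.00612% of genes were called. In a fit of only those 10 animals it was called (adjusted p = 0.0495, edgeR). Summed oligodendrocyte markers in WT ranged from 2785 to 5089 CPM at 12 dpi and from 1727 to 2154 CPM at 90 dpi, and microglial markers from 209.2 to 266.6 and from 150.6 to 209.0 CPM, and their part was not tested.

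CKO animals at 12 dpi had the lower Pdgfd. They ranged from 0.541 to 1.99 CPM with a median of 1.38, and 6 of 7 lay below all WT animals of that time. The change was -1.54 (SE 0.44, adjusted p = 0.615, unadjusted p = 0.00138, edgeR). At 90 dpi the sign was the opposite, with CKO at a median of 2.29 CPM against 1.03 CPM in WT and a change of 0.97 (SE 0.48, adjusted p = 0.96, edgeR), or 0.95 without WT_21167. The difference between those genotype effects was 2.50 (SE 0.66, adjusted p = 0.921, unadjusted p = 0.000507, edgeR). From 90 to 150 dpi WT animals changed by 1.02 (SE 0.50, adjusted p = 0.601, edgeR), in a comparison in which 0.0183% of genes were called. None of these passed the threshold over all genes.

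No difference between the sexes was called for the 5 genes. Between male and female animals the changes lay between -0.08 and 0.14 (edgeR), 0 of the 5 were called by edgeR or DESeq2, none had an unadjusted p under 0.05, and 0.0489% of all genes were called.

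Per kilobase of exon, which allows levels of different genes to be compared, Pdgfra stood far above its ligands. Its mean was 121 CPM per kb in tumours, above 98.5% of the 16276 genes with a length, and 27.4 to 45.2 CPM per kb in the other groups, above 89.8% to 94.4% of genes. Pdgfa was next, above 64.0% to 73.9% of genes over the 6 groups. Pdgfc lay above 33.6% to 42.5%, Pdgfb above 15.5% to 35.1% and Pdgfd above 9.95% to 25.7%. The lowest position of Pdgfb was in tumours, and that of Pdgfd was in WT at 90 dpi. Without WT_21167, the positions in WT at 90 dpi were above 69.5% of genes for Pdgfa (73.9% with it) and above 11.1% for Pdgfd (9.95% with it).

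As a share of the 4 ligands per length, the A ligand made up most of the ligand RNA in every group, with means of 58.0% to 70.1%. In tumours the mean shares were 62.7% ± 8.80 for Pdgfa, 24.1% ± 7.69 for Pdgfc, 7.58% ± 2.09 for Pdgfd and 5.60% ± 2.55 for Pdgfb (SD, n = 7). In the other groups the mean Pdgfb share was 11.1% to 16.5%. The highest mean share of Pdgfa and the lowest of Pdgfb outside tumours were those of WT at 90 dpi, where they were 66.9% and 13.9% without WT_21167. The receptor over the summed ligands had a median of 5.54 in tumours (3.35 to 17.1), against 3.24 (1.87 to 5.65) in WT at 150 dpi and 3.52 (1.56 to 4.41) in CKO at 90 dpi. In WT at 12 dpi it was 1.83 (1.02 to 1.90). These ratios are descriptions with no test, since they combine the values tested above.

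**Figure D3:**
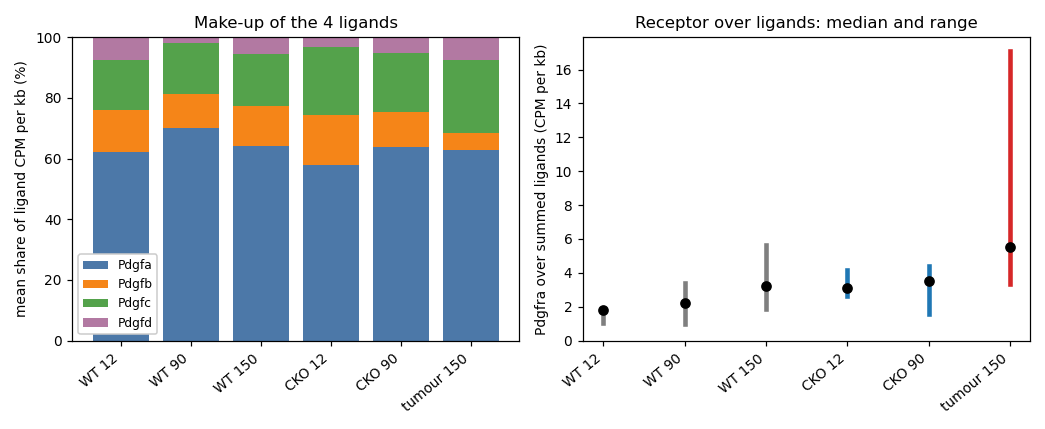
Left, mean share of each ligand in the summed CPM per kb of the 4 ligands in each group (percent, stacked to 100). Right, Pdgfra over the summed ligands, with the median as a black point and the range over animals as a bar, where tumours reach 17.1 and WT animals at 12 dpi stay at or under 1.90.

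Across the 7 tumours, Pdgfra and its ligands were not found to vary together. Pearson's r of log2 CPM was 0.02 with Pdgfa, -0.59 with Pdgfb, -0.33 with Pdgfc and 0.09 with Pdgfd. The strongest, Pdgfb, had an exact permutation p of 0.129 (two-sided, adjusted p = 0.515 over 4 relations, n = 7) and Spearman's rho of -0.64. Without the 2 tumours farthest from the median of Pdgfb, r was -0.32. The sample of tumours is small, so these values do not show that the genes vary independently.

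Genes that process the ligands or take them up were called higher in tumours for 4 of 8 listed genes against WT, where 24.3% of all genes were, and none was lower. The median change was 0.79, against 0.06 over all genes. Plau, the urokinase plasminogen activator that can release the D ligand, changed by 2.51 (SE 0.56, adjusted p = 0.000361, edgeR), from a mean of 1.18 ± 0.923 CPM in WT to 6.04 ± 3.63 CPM in tumours. Nrp1, a co-receptor of several growth factors, changed by 2.13 (SE 0.37). Against CKO at 90 dpi, where 26.4% of all genes were called higher and 22.6% lower, 5 of 8 were higher and 1 lower (median 0.86, against 0.12 over all genes), with Plau at 3.09, Nrp1 at 1.88 and the convertase Pcsk5 at -1.29. Pcsk5 was low and uneven, at 1.72 to 20.2 CPM in CKO at 90 dpi (median 3.24), with a tumour median of 2.15 CPM. With RLE size factors, another scaling of the libraries, 6 of 8 were higher and none lower in both comparisons. Shares of all genes, here and for the lists below, are those of TMM scaling, so the RLE counts have no share of their own beside them. Microglial markers were higher too, 11 of 12 against WT and 12 of 12 against CKO at 90 dpi, and their part was not tested.

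Of the 28 adaptors and effectors of the receptor, 9 were higher and 7 lower against WT (median 0.08), and again 9 and 7 against CKO at 90 dpi (median 0.12). Over all genes, 24.3% were called higher and 21.9% lower against WT (median 0.06), and 26.4% and 22.6% against CKO at 90 dpi (median 0.12), so these counts are near the background. With RLE size factors the split was 12 and 5 against WT and 11 and 6 against CKO at 90 dpi. Gab1, a docking protein for PI3 kinase, changed by 1.89 and 1.72 in the 2 comparisons, and Shc1, an adaptor for Ras activation, by 1.57 against WT. Pik3r1, a regulatory subunit of PI3 kinase, changed by 1.87 against CKO at 90 dpi. The largest falls were those of the kinase gene Map2k1, by -3.82 and -3.16, and of the adaptor gene Grb2, by -2.22 and -2.14.

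Of 10 negative regulators, 3 were higher and 5 lower against WT (median -0.26), and 2 higher and 6 lower against CKO at 90 dpi (median -0.44). With RLE size factors these counts were 3 and 3, and 3 and 5. The shares over all genes were 24.3% higher and 21.9% lower against WT, and 26.4% and 22.6% against CKO at 90 dpi, with medians of 0.06 and 0.12. Rasa1, a Ras GTPase-activating protein, changed by -1.58 and -1.28. Lrig1, a membrane protein that lowers receptor levels, changed by 1.70 and 1.87, and the adaptor Sh2b3 by 0.61 and 0.75.

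Output genes of the MAP kinase pathway were called higher for 8 of 12 against WT, where 24.3% of all genes were, with none lower and a median of 1.31. Against CKO at 90 dpi 8 were higher and 2 lower (median 1.33, with 26.4% and 22.6% of all genes), or 8 and 1 with RLE size factors. Ccnd1, a G1 cyclin, changed by 4.61 and 3.73, from a mean of 41.8 ± 9.32 CPM in WT to 1014 ± 845 CPM in tumours, and the ETS factor genes also rose, Etv5 by 2.53 against WT and Etv4 by 2.40 against CKO at 90 dpi. Fosl1 and Spred2 were the 2 lower genes, at -1.15 and -0.82. In CKO against WT, 0 of the 12 were called at 12 dpi and 0 at 90 dpi, where 0.0183% and 0.0489% of all genes were (edgeR). Neurofibromin, the product of the deleted Nf1 gene, is itself a brake on Ras, and proliferation genes moved in the same tumour comparisons. The part of either in these changes was not tested.

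Pdgfra belongs to the class III receptor kinases, together with the genes Kit, Csf1r and Flt3. Of the 7 listed relatives and ligands, 3 were higher and 1 lower against WT, and 2 higher and 1 lower against CKO at 90 dpi, and RLE size factors added 1 higher gene to each. Over all genes 24.3% were higher and 21.9% lower against WT, and 26.4% and 22.6% against CKO at 90 dpi. Kit, the neighbour of Pdgfra on the chromosome, changed by 2.17 against WT, and Csf1 by 1.90 and 1.03. Csf1r, a microglial gene, changed by 1.16 against CKO at 90 dpi, and its neuronal ligand Il34 by -1.57 and -1.84. Of 8 VEGF relatives tested, 2 were higher and 2 lower against WT, and 3 higher and none lower against CKO at 90 dpi. Vegfd changed by 3.94 and 2.95, but from levels near the floor. Its means were 0.027 CPM in WT at 150 dpi, 0.172 CPM in CKO at 90 dpi and 0.882 CPM in tumours. The receptor gene Flt4 changed by 1.97 and 2.39, with a tumour median of 5.71 CPM and a highest tumour value of 54.6 CPM. Vegfa (-0.80) and Flt1 (-0.78) were lower against WT, where RLE size factors left 1 of the 2 called.

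Of 16 listed neighbours of Pdgfra on chromosome 5, within about 1.4 megabases of its start, 13 could be tested, and they moved in both directions. Against WT, 6 were higher and 3 lower, where 24.3% and 21.9% of all genes were. Against CKO at 90 dpi 6 were higher and 4 lower, where 26.4% and 22.6% of all genes were. With RLE size factors the counts were 7 and 2, and 8 and 2. The nearest tested gene, Chic2, starts 107.5 kb before Pdgfra and changed by 0.59 (SE 0.24, adjusted p = 0.0426, edgeR) and by 1.00 against CKO at 90 dpi. Fip1l1, which starts 616.8 kb before it, changed by 0.52 and 0.50. Lnx1, between them, was not called in either comparison. Rasl11b and Usp46, near 1 megabase before it, changed by -3.30 and -1.99 against WT, and Srd5a3 and Tmem165, near 1 megabase after it, by 1.55 and 1.05. Kdr, between Kit and Srd5a3, was at 0.01 against WT and was not called.

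The 2 tumours with the most Pdgfra also had the most Chic2 and Fip1l1. Tumor_21256 had 192.3 CPM of Chic2 and 447.8 of Fip1l1, and Tumor_16839 had 154.1 and 320.6, whereas the other 5 tumours ranged from 48.9 to 77.0 and from 207.1 to 306.9 CPM. For Kit the order differed, with Tumor_16839 at 185.2, Tumor_21349 at 142.8 and Tumor_21256 at 124.7 CPM. Lnx1 did not follow that order: Tumor_21256 had 8.39 CPM, Tumor_16839 stood at the tumour median of 12.5 CPM, and the highest value was 52.6 CPM in Tumor_16840. Of the 13 tested neighbours, 7 had their highest tumour value in Tumor_21256, which held the highest tumour value of 16.2% of all 16349 genes.

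**Figure D4:**
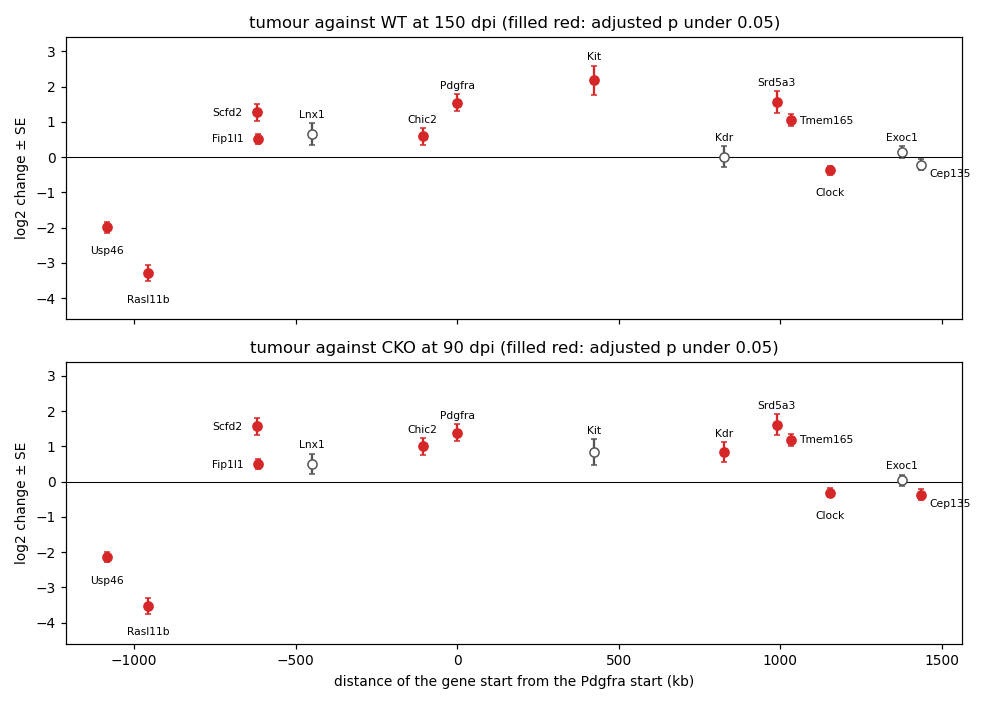
Log2 change ± SE (y axis) of Pdgfra and the 13 tested neighbours against the distance of each gene's start from that of Pdgfra (x axis, kb), for tumours against WT at 150 dpi (top) and against CKO at 90 dpi (bottom), with red filled points where the adjusted p was under 0.05. Genes on both sides change in both directions, from -3.30 for Rasl11b to 2.17 for Kit in the top panel.

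Among 8174 genes of at least median abundance, those whose log2 CPM followed Pdgfra most closely over the 37 bulk animals were Lhfpl3 (Pearson's r 0.923), Cacng4 (0.921), Xylt1 (0.913), Ptprz1 (0.893) and Fip1l1 (0.875). Lhfpl3, Cacng4 and Ptprz1 are on the OPC marker list, and Fip1l1 is the chromosomal neighbour named above. Within groups, after each group's mean was removed, r was 0.709 to 0.818 for these 5 genes. Without WT_21167 the values were 0.881 to 0.933. The animals share cell content and depth, so these are descriptions over 37 points, with no test.

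For Pdgfb the closest genes were Cdk5, Slc9a3r2, Mgst3, St6galnac3 and Dnaja4, at r of 0.887 to 0.893, but these values rested on WT_21167, where Pdgfb was at 0. Without that animal they were 0.665 to 0.760, and St6galnac3 dropped from place 4 to place 399. Pdgfd was most like Cx3cr1, a microglial receptor gene (r 0.765, and 0.602 without that animal), followed by Plod1, C1ql1, Tmem50a and Txndc5 (0.709 to 0.737, and 0.478 to 0.552 without it). Pdgfa was most like Mgll (0.715), then Myadm, Mapk3, Flot2 and Deaf1 (0.596 to 0.666, and 0.534 to 0.681 without that animal, when Deaf1 dropped to place 36). Pdgfc was most like Slc35d1 (0.619), then Papss1, Il6st, Vwa1 and Lrrc41 (0.585 to 0.618). No gene followed Pdgfa or Pdgfc as closely as the first 5 followed Pdgfra.

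The small libraries were made from polyadenylated RNA by PCR rather than from total RNA by linear amplification, so their levels are not set against bulk. The 10-cell libraries held 1640000 to 6490000 counts and the pool-and-split libraries 1910000 to 5160000. Pdgfra was detected, with a count above 0, in 36 of 56 10-cell libraries at 12 dpi (64.3%, exact binomial 95% interval 50.4 to 76.6%) and in 49 of 56 at 90 dpi (87.5%, 75.9 to 94.8%). In pool-and-split controls it was detected in 26 of 40 (65.0%, 48.3 to 79.4%) and 34 of 40 (85.0%, 70.2 to 94.3%). The intervals cover counting error only, and the labels do not say which libraries share an animal. More genes of any kind were detected at 90 dpi in 10-cell libraries, with a median of 10110 against 7550 genes at 12 dpi, although the median total was 4040000 against 4480000 counts. In pool-and-split libraries the medians were 8739 and 8690.5 genes.

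The ligands were patchier. Pdgfa was detected in 32 and 44 of 56 10-cell libraries at 12 and 90 dpi, Pdgfb in 17 and 29, Pdgfc in 16 and 14, and Pdgfd in 5 and 17. In pool-and-split controls the counts out of 40 were 29 and 32 for Pdgfa, 12 and 3 for Pdgfb, 12 and 9 for Pdgfc, and 5 and 4 for Pdgfd. Controls divided from pooled material missed each ligand in some of their libraries too, so a gene not detected in a 10-cell library cannot be taken as absent from its cells.

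**Figure D5:**
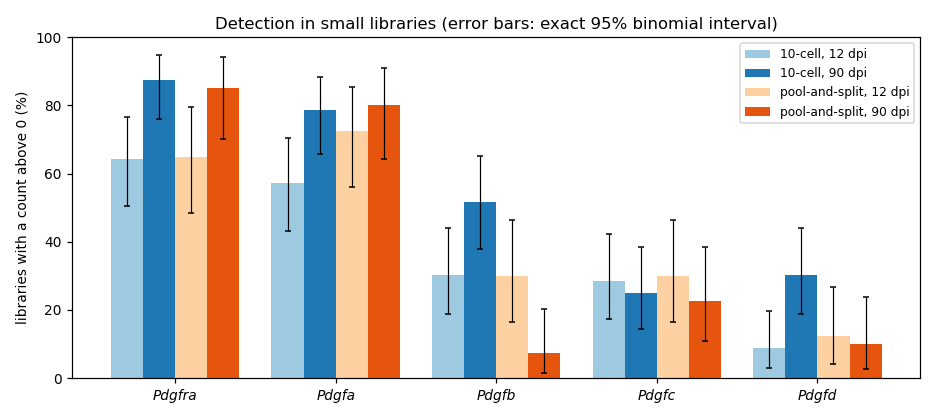
Share of small libraries with a count above 0 for each gene (percent, bars), for 10-cell and pool-and-split libraries at 12 and 90 dpi, with exact 95% binomial intervals. Pdgfra and Pdgfa are detected in more than 50% of libraries in each of the 4 groups of libraries, and Pdgfd in at most 30.4%.

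Within a group of small libraries, a few libraries carried most of the counts. Pdgfra had a median of 1.42 CPM and a highest value of 1300 CPM in 10-cell libraries at 12 dpi, where 5 of 56 libraries held 82.7% of its summed CPM. At 90 dpi the median was 7.32 and the highest value 444 CPM, with 61.4% in 5 libraries. In pool-and-split controls, 5 of 40 libraries held 70.6% of the sum at 12 dpi and 76.3% at 90 dpi, shares of a different number of libraries that are not compared here. The mean absolute deviation of log2(CPM + 1) of Pdgfra from its set's median was 0.27 larger in 10-cell than in pool-and-split libraries at 12 dpi (adjusted p = 0.864, limma) and 0.01 larger at 90 dpi (adjusted p = 0.995, limma). For Pdgfa the differences were 0.02 (adjusted p = 0.995) and -0.54 (adjusted p = 0.626, limma). Neither gene was called, in tests that called 0.0252% of 7926 genes at 12 dpi and 0.639% of 9704 genes at 90 dpi, and neither had an unadjusted p under 0.05. The other 3 ligands were detected in under 50% of libraries of a time and were not tested. These tests took each library as a replicate, although libraries of a set share a source.

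Summed over the 14 libraries of a set, defined by sex and number, Pdgfra in 10-cell libraries stood at 5.82, 6.27, 55.2 and 124 CPM at 12 dpi and at 15.1, 19.9, 38.6 and 55.3 CPM at 90 dpi. The sets at 12 dpi were spread more widely and enclosed those at 90 dpi. The change from 12 to 90 dpi was -0.49 (SE 0.97, adjusted p = 0.929, edgeR), and in pool-and-split sets it was 0.38 (SE 0.95, adjusted p = 0.958, edgeR). Pdgfc changed by -1.89 (SE 0.79, adjusted p = 0.679, unadjusted p = 0.0403, edgeR) and Pdgfd by 2.90 (SE 1.13, adjusted p = 0.668, unadjusted p = 0.03, edgeR) in 10-cell sets. edgeR called 0.0% of 14500 genes in 10-cell sets and 0.0% of 13408 in pool-and-split sets, with 1034 and 1050 genes at an unadjusted p under 0.05, whereas DESeq2 called 675 and 953 genes, none of them a PDGF gene. Pdgfd passed the filter in 10-cell sets only.

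Among 9128 genes detected in at least 50% of 10-cell libraries, those whose levels followed Pdgfra most closely were Olig2, Sulf2, Matn4, Evi5l and Tnr, with Spearman's rho of 0.413 to 0.463 over the 10-cell libraries of both times. Olig2, Matn4 and Tnr are OPC markers, and the sum of the OPC markers had a rho of 0.454 with Pdgfra. In the 80 pool-and-split controls rho was -0.04 to 0.182 for those 5 genes and 0.007 for the OPC sum. Pericyte and endothelial sums had rho of -0.317 and -0.221 in 10-cell libraries, and the library total had -0.108. With the ligands, Pdgfra had rho of -0.028 for Pdgfa, 0.206 for Pdgfb, 0.107 for Pdgfc and 0.044 for Pdgfd. Libraries share sets and differ in depth, and counts are sparse, so these values are descriptions with no test.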

How the data were processed

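RNA of laser-captured cells was measured in 240 libraries. The authors deposited 1 table of expected counts per gene and library, made with RSEM and Bowtie2 on GRCm38, per the submitters' processing notes. Those estimated counts were rounded, and 92 spike-ins were left out. The 2 libraries of each of 11 animals were summed, giving 37 animals in 6 groups taken from the labels. edgeR 4.0.16 (R 4.3.3) was run with TMM scaling, a filter of 10 counts (15 in total), a prior count of 2 and sex as a covariate, on all animals in 1 fit. Small libraries were summed into 4 sets per time and kind (14 10-cell or 10 pool-and-split libraries each) and tested in the same way. Spread was compared with limma 3.58.1 on absolute deviations of log2(CPM + 1) for genes detected in at least 50% of libraries. DESeq2 1.42.0, RLE size factors, other filters, no sex term, the deepest library of each animal, robust spread, fits of only the groups compared, other pseudocounts and leaving out each animal or set were tried, and were planned. Analyses without WT_21167 of the genes most like each member, and of levels and shares in WT at 90 dpi, were chosen after seeing the data. Scripts were tested on simulated data. Gene positions and exon lengths came from GENCODE, in which 34331 of 34623 genes matched by identifier (93.3% of these with the same coordinates), and promoters from RefSeq.

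The rule for names was all 5 members, up to the 2 largest rises and falls per list among called genes, any chromosomal neighbour, and the 5 genes most like each member. The values of 1 gene that this rule names are not reported here. The members and lists were chosen with earlier results of these data known. The labels do not say which small libraries came from the same animal, so p-values over sets measure the spread between sets, which may be technical. Depth was 93700 to 23200000 counts in bulk, 1640000 to 6490000 in 10-cell and 1910000 to 5160000 in pool-and-split libraries. At the lower end, genes under 1 CPM rest on few counts.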

Additional observations from a re-analysis of the deposited data

Results flagged for a closer look

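In groups of 4 to 10 samples, a value was taken as standing apart when its gap to the nearest other value was large for the range of the group (Dixon's test at 95%). Chance gives about 1 such value in 20 groups, and 50 groups were checked, so some of the values given here would be met without any cause.

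In bulk, Pdgfra stood apart in Tumor_21256, at 2630 CPM against 1390 in the next tumour. Pdgfa stood apart in CKO_22017 at 12 dpi, with 37.1 CPM against 26.2 in the next animal, and in CKO_20647 at 90 dpi, with 51.6 against 28.7. CKO_20647 also had the least Pdgfra of its group, and its 2 libraries differed more than those of any other animal, at 385.9 and 148.4 CPM of Pdgfra before TMM scaling. Pdgfb was low in CKO_22149 at 90 dpi, with 2.46 CPM against 6.14 in the next animal. Among tumours, Pdgfb was high in Tumor_21354, with 6.07 CPM against 3.45, and that tumour had the least Pdgfra.

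In sets of small libraries, Pdgfa stood apart in the 10-cell set male 1 at 90 dpi (137 CPM, next 56.3). Pdgfb stood apart in the pool-and-split set female 2 at 12 dpi (22.0 CPM, next 8.60) and in female 1 at 90 dpi (51.8 CPM, next 1.11). Pdgfc did so in the 10-cell set female 1 at 90 dpi (27.1 CPM, next 4.45). Pdgfd did so in the 10-cell set male 2 at 90 dpi (6.25 CPM, next 1.23) and in the pool-and-split set male 2 at 90 dpi (7.26 CPM, next 0.0304).

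The genotype effect on Pdgfra differed between 90 and 150 dpi by 1.04 on the log2 scale (adjusted p = 0.0209, edgeR's quasi-likelihood test), and the later samples of that genotype were tumours.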

How the results depend on the processing

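Over 49 results, 1634 alternatives were computed, of which 1321 left out 1 animal or set, and 1588 kept the direction and side of the threshold. Log2 changes are given with adjusted p where the call moved. With only the groups compared in the fit, Pdgfra was called in CKO against WT at 12 dpi (0.58, p = 0.0335) and Pdgfd in WT 90 against 12 dpi (-1.84, p = 0.0495), so that 1 member was called in each, while the tumour calls were lost for Pdgfb against WT (-0.95, p = 0.0696) and Pdgfd against CKO at 90 dpi (1.03, p = 0.0929). With no filter on low counts the latter was 0.98 (p = 0.0781). DESeq2 called all 5 members in tumours against WT, adding Pdgfa (0.68, p = 0.0479) and Pdgfd (1.12, p = 0.0319), and RLE size factors added Pdgfd (1.14, p = 0.0286). In that comparison edgeR with TMM scaling called 46.2% of all genes. The shares called with DESeq2 and with RLE size factors are not given here, so these added calls have no background beside them. Pdgfc in tumours against CKO at 90 dpi was called with DESeq2 (0.64), RLE size factors (0.64) and a filter of 10 CPM (0.60). RLE size factors moved the median change of all genes from 0.06 to 0.22 against WT and from 0.12 to 0.29 against CKO at 90 dpi.

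Leaving out single animals or sets moved the following. Tumours against WT gave 0.17 to 0.69 for Pdgfa, -1.19 to -0.74 for Pdgfb, 0.64 to 1.39 for Pdgfd and 2 to 5 members called. Tumours against CKO at 90 dpi gave -0.07 to 0.53 for Pdgfa and 0.70 to 1.20 for Pdgfd. Pdgfra gave -0.022 to 0.17 in CKO 90 against 12 dpi, -0.89 to 0.77 in 10-cell sets and -0.054 to 0.96 in pool-and-split sets. The spread difference gave -0.32 to 0.24 for Pdgfa at 12 dpi and -0.26 to 0.26 for Pdgfra at 90 dpi. Correlations with Pdgfra over tumours gave -0.079 to 0.12 for Pdgfa and -0.009 to 0.18 for Pdgfd. The spread difference of Pdgfa at 12 dpi was also -0.16 with a pseudocount of 5 and -0.063 with TMM-scaled totals, and that of Pdgfra at 90 dpi -0.076 with a pseudocount of 0.1 and -0.089 with TMM-scaled totals. When genes detected in 10% of libraries were tested, 1 member was called at 90 dpi, Pdgfb (1.48, p = 0.0473, limma).

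Sets with the same sex and number at 12 and 90 dpi were not found to deviate together (correlations -0.04 to 0.02). Correlations between the other sets were also small, at most 0.068, so these values cannot show whether the numbers pair the sets. With a replicate block the Pdgfra change in 10-cell sets was 0.33, and no member was called. The cause of each of these moves was not tested. Over all genes, counts of calls moved by over 1.5 times in comparisons with few calls. CKO against WT at 12 dpi went from 3 to 18 with DESeq2, 92 with only its groups and 1 with the 10 CPM filter, and at 90 dpi from 8 to 21 and, with that filter, 4. WT 90 against 12 dpi went from 1 to 13 with DESeq2 and 295 with only its groups, WT 150 against 90 dpi from 3 to 20 with DESeq2 and 5 with no sex term, and the sexes from 8 to 16 with DESeq2. The spread test at 12 dpi went from 2 to 11 with a pseudocount of 0.1.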
